A study of Homo sapiens with 4 samples.

Results

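The genes described here encode voltage-gated sodium, calcium and potassium channels, their auxiliary subunits and related pore proteins, measured in SH-SY5Y cells after knockdown of LSD1. They were taken from the array annotation by symbol: sodium channel genes (SCN with a number and A or B), calcium channel genes (CACNA, CACNB and CACNG), all KCN genes and the HCN genes, each from probe sets that name 1 gene. Antisense, intronic and divergent transcripts with a hyphenated suffix were left out (11 genes). The pattern found 128 genes on 272 probe sets, among 19775 named genes in all, and each gene was represented by its brightest probe set. Of the 128 genes, 126 code for proteins and 2, KCNQ1OT1 and KCNQ1DN, are long non-coding RNAs whose names match the pattern. The pattern also takes in potassium channel families that were grouped by symbol apart from the voltage-gated ones. These are the inward rectifiers (KCNJ), the two-pore leak channels (KCNK) and the KCNM, KCNN, KCNT and KCNU genes.

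SH-SY5Y is a human neuroblastoma line with features of immature sympathetic neurons. The cells of the siControl group (2 arrays) had been transfected with a control siRNA and those of the siLSD1 group (2 arrays) with an siRNA directed against LSD1, a histone lysine demethylase encoded by KDM1A. The submitters describe the transfections of a group as independent experiments, so the spread between arrays is that between transfections of 1 cell line; for the siRNA sequences, their dose and the time of harvest the sources used here give no value. The title of the second siLSD1 array writes the target as LSD, without a number, and that title is the basis for its group. The comparison addresses how depletion of LSD1 bears on transcript levels, here those of ion channels.

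Voltage-gated channels are pores that open when the membrane depolarizes. Sodium channels carry the rising phase of the action potential, calcium channels couple it to transmitter release and gene regulation, and potassium channels repolarize the membrane and set its resting level. Many of their genes belong to the neuronal program that the repressor REST silences outside neurons, and REST acts through CoREST, the partner through which LSD1 is brought to chromatin.

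Of the 128 channel genes, 45 had a mean signal over the 4 arrays at or above the filter level (4.12 on the log2 scale, the 40th percentile of all genes) and were tested. This is 35.2% of the channel genes, where the filter by its construction kept 60% of all genes. All levels are log2 signals after quantile normalization, and all fold changes are siLSD1 over siControl on that scale. Probe sets differ in their affinity, so no order of levels between genes is drawn, and mean signals served only for the filter and for choosing which genes to name. The tested genes comprised 6 of 12 sodium channel genes, 10 of 25 calcium channel genes, 25 of 86 potassium channel genes, all 3 HCN genes and KCNQ1OT1. No tested member had a group mean below the filter level, and 7 had at least 1 array below it.

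KDM1A was at 9.79 and 9.78 on the siControl arrays and at 8.40 and 8.54 on the siLSD1 arrays, 2.50-fold lower. Its adjusted p was 0.39 over all genes in limma, so that even the siRNA's target did not pass the threshold of 0.05. Over all probe sets siControl replicate 1 correlated with the other arrays at 0.909 to 0.911, and those arrays among themselves at 0.925 to 0.928. Of 13 noradrenergic neuroblastoma markers on the array, 12 were above the filter level, among them STMN2, GATA3 and ISL1, while TH, the rate-limiting enzyme of catecholamine synthesis, lay below it on all 4 arrays. Of other cell types' markers, 0 of 5 Schwann and glial genes, 1 of 5 blood cell genes (HBB) and 7 of 8 fibroblast genes were above it, the last including PDGFRA, COL3A1 and LUM. The summed antilog signal of the fibroblast list was 1625 and 1178 in siControl and 1531 and 1816 in siLSD1 cells, and its part in the channel values was not tested.

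No channel gene passed the test. In limma's moderated test 0 of the 45 were higher and 0 lower at an adjusted p under 0.05, against 0% of all 11865 genes in either direction, and the smallest adjusted p of a member was 0.9996. At an unadjusted p under 0.05, 0 members were higher (2.29% of all genes) and 1, KCNMA1, was lower (1.15% of all genes). Under median centring these counts were 2 higher and 0 lower, where 78.2% of all genes had higher means. The matching shares of all genes at that p were not counted under median centring. The channel genes, with 24 higher and 21 lower means (51.3% of all genes had the higher mean), had a median log2 fold change of 0.05, with quartiles of -0.11 and 0.24, beside a median of 0.01 and quartiles of -0.15 and 0.19 for all genes tested. Both siLSD1 arrays lay above both siControl arrays for 10 members (22.2%, against 16.6% of all genes) and below them for 6 (13.3%, against 15.1%). In either direction this was 35.6% of the members and 31.7% of all genes, so that the share was near the background.

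At the median, replicate arrays lay farther apart for channel transcripts than for all genes tested, with no matching for signal level. The arrays of siControl differed by a median of 0.55 for the members and 0.29 for all genes tested, and those of siLSD1 by 0.24 and 0.19. The members were more often of low signal. With the filter at the 60th percentile 13 of the 45 members remained, against 7910 of the 11865 genes tested. Whether spread or margin differs between members and other genes of like signal was not tested. In 30 of the 45 members the siControl arrays differed from each other by more than the groups did. The matching share of all genes was not counted. Over all genes tested the median siControl difference, 0.29, was likewise larger than the median size of a log2 fold change, 0.17. The 95% margin around a log2 fold change was ± 0.78 at the median member and ± 0.58 at the median gene. The adjusted test asks for more than such a margin, as KDM1A, lower by 2.50-fold, did not pass it either. By its brightest probe set no member reached a 2-fold difference, which 1.37% of all genes did, and so few members allow no contrast with that share. A second probe set of KCNT2 above the filter level, given below, was 2.38-fold higher. In bulk RNA, fewer cells that express a channel and less of its RNA per cell cannot be told apart.

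**Figure D1:**
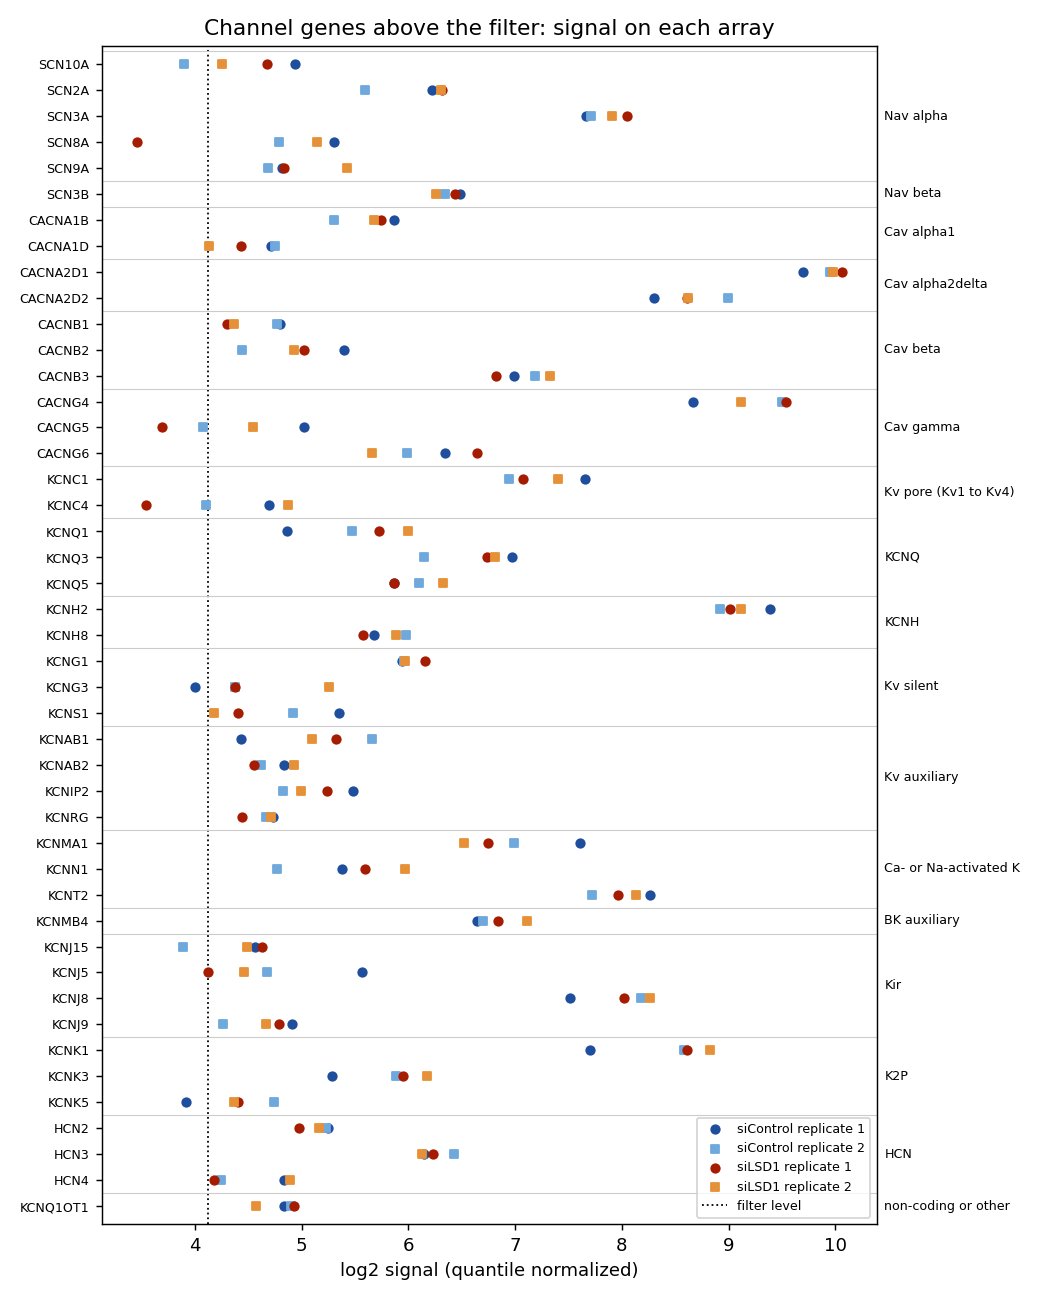
Log2 signal (x axis, quantile normalized) of the 45 channel genes above the filter on each of the 4 arrays, grouped by role (Nav, sodium; Cav, calcium; Kv, potassium; BK, large-conductance potassium; Kir, inward rectifier; K2P, two-pore). Points of a gene are compared along its row only; in many rows the dark blue point of siControl replicate 1 lies at one end, as for KCNK1 at 7.70 against 8.58 to 8.83 on the other arrays.

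**Figure D2:**
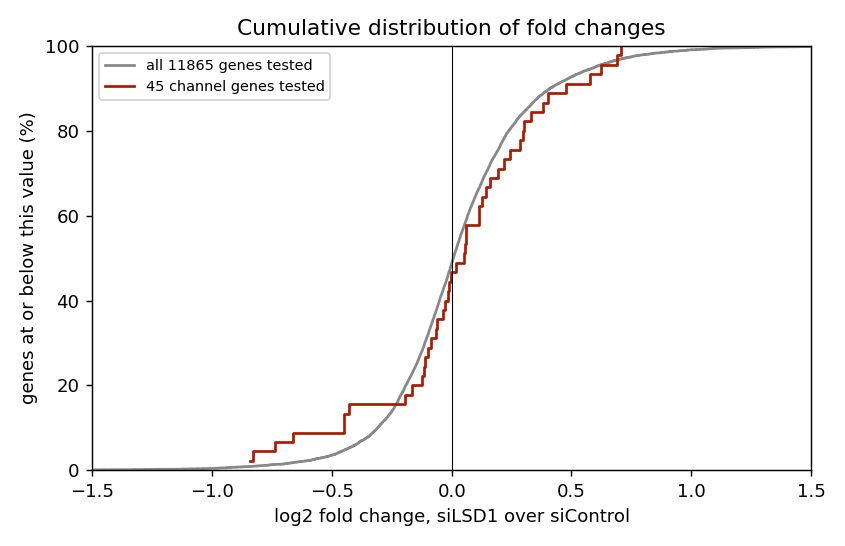
Cumulative share of genes (y axis, %) at or below each log2 fold change (x axis) for the 45 channel genes and for all 11865 genes tested. The curves cross 50% near their medians of 0.05 and 0.01, and the channel genes end at -0.84 and 0.71.

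To show what lies before the start of members that the values below turn on, the 250 bases upstream of their most upstream RefSeq start are printed, 5′ to 3′ on the gene's strand, in the build GRCh38.p14. KCNK1 and KCNK3 are the two-pore channels with separate groups, KCNT2 has probe sets that disagree, and KCNMA1 has the smallest p by gene. These genes were chosen after their values were seen. Capitals mark matches to a portion of the REST element, CAGCACC for its left and GGACAG for its right portion, on either strand.
KCNK1, chr1:233613856-233614105, plus strand: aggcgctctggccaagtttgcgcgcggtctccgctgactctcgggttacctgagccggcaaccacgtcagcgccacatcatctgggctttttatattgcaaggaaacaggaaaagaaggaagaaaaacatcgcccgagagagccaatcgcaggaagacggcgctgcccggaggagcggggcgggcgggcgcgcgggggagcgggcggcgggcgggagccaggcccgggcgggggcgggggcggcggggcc
KCNK3, chr2:26692472-26692721, plus strand: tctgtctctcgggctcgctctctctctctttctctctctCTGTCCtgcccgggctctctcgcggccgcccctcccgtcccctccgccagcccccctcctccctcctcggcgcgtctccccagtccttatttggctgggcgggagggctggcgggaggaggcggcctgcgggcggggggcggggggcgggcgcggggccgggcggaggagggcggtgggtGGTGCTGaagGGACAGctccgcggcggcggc
KCNT2, chr1:196608441-196608690, minus strand: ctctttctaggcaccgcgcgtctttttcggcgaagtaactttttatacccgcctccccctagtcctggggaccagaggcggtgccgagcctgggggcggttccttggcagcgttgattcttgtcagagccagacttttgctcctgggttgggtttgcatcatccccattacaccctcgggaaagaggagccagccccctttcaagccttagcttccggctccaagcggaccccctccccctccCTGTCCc
KCNMA1, chr10:77637809-77638058, minus strand: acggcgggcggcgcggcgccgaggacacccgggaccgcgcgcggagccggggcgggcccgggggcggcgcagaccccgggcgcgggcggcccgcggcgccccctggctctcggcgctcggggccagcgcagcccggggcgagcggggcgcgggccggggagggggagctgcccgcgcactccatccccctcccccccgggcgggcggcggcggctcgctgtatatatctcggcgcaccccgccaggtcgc

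All of these windows are rich in G and C, from 60.4% in KCNT2 to 85.6% in KCNMA1. In KCNK3 a right portion on the gene's strand lies 21 to 16 bases before the start and a left portion in the opposite orientation 31 to 25 bases before it, with another right portion farther upstream. The opposite orientations are not those of a complete REST element. KCNT2 has 1 right portion close to its start, and the windows of KCNK1 and KCNMA1 hold no match. RefSeq windows of 300 bases (250 before to 50 after a start) were on hand for 34 of the 45 tested members, 56 windows in all. The left portion was in 10.7% of these windows and in 7.75% of all 35116 windows, and the right portion in 19.6% and 20.5%. The element with both portions in order, CAGCACCNNGGACAG on either strand, was in 0 of the 56 and in 18 of all windows. The E-box CAGGTG, a sequence bound by SNAI1, another factor that recruits LSD1, was in 17.9% and 20.6%. The members' windows had a median G and C content of 70.5%, against 58.7% for all windows. These matches describe letters in a window and say nothing of binding in these cells.

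Of the 5 pore-forming sodium channel subunits tested, 3 had both siLSD1 arrays above both siControl arrays, where 16.6% of all genes did; so few genes allow no reading of the share. SCN3A, a channel of immature neurons, was at 7.67 and 7.71 in siControl and 8.04 and 7.90 in siLSD1 cells. Its values were 7.69 ± 0.032 and 7.97 ± 0.1 (SD, n = 2), a 1.22-fold difference (95% interval -0.20 to 0.77, log2). It was among the tightest of the family, with both groups spread by less than the difference between them. With the mean of all its probe sets it turned to -0.055, and its other probe set had a mean signal of 3.24, below the filter level. SCN2A, a channel of axons of the central nervous system, was at 6.22 and 5.60 in siControl and 6.31 and 6.30 in siLSD1 cells, or 1.32-fold higher. One siControl array was close to the siLSD1 arrays and the other low, and the log2 fold change of 0.40 was 0.09 without siControl replicate 2. SCN9A, the channel of nociceptors and sympathetic neurons, was at 4.82 and 4.68 and then 4.83 and 5.43, with a log2 fold change of 0.38 that rested on siLSD1 replicate 2 and was 0.08 without it.

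SCN8A, the main channel of mature axon initial segments, had the lower mean. Its signal was 5.30 and 4.78 in siControl and 3.46 and 5.15 in siLSD1 cells, so the groups overlapped. The log2 fold change of -0.74 turned to 0.10 without siLSD1 replicate 1. The auxiliary subunit SCN3B, an adhesion-type beta subunit that modulates gating, gave 6.49 and 6.34 and then 6.43 and 6.26, a log2 fold change of -0.07 that turned to 0.14 under median centring. Over the 6 sodium channel genes tested, 4 means were higher and 2 lower, and the median log2 fold change was 0.17. This was 0.14 under the deposited scaling, with 3 higher means, 0.31 under median centring and -0.02 without siControl replicate 2. With the mean of all probe sets it was -0.0023 and with no _x_at or _s_at probe sets -0.0076, each with 3 higher and 3 lower means. None of the 6 passed the test.

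Calcium channel genes had 4 higher and 6 lower means, with a median log2 fold change of -0.01; under the deposited scaling 7 were higher and the median was 0.02, and under median centring 7 and 0.19. With siControl replicate 2 left out the median was -0.17, and with siLSD1 replicate 2 left out 0.04. CACNA1D, the pore of an L-type channel that opens at low voltages, was at 4.72 and 4.75 in siControl and 4.43 and 4.13 in siLSD1 cells. Both siLSD1 arrays were below both siControl arrays, by 1.37-fold on the means (95% interval -1.33 to 0.43, log2). Its other probe set above the filter level had a log2 fold change of 0.16, in the opposite direction. CACNA1B, the pore of the N-type channel that triggers transmitter release at many synapses, was at 5.86 and 5.31 and then 5.74 and 5.68, a log2 fold change of 0.12 that turned to -0.15 without siControl replicate 2.

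Among the auxiliary subunits of calcium channels tested, both siLSD1 arrays were the higher for 1 of 2 alpha2delta subunits. They were the lower for 1 of 3 beta subunits, and all 3 gamma subunits overlapped. Of all genes, 16.6% were separate upward and 15.1% downward, and so few genes allow no reading of the share. CACNA2D1, an extracellular alpha2delta subunit that brings channels to the surface, was at 9.70 and 9.95 in siControl and at 10.06 and 9.98 in siLSD1 cells, a log2 fold change of 0.19 (95% interval -0.13 to 0.51, log2). This was the narrowest interval among the members with separate groups; the gene's other probe set above the filter had -0.19. CACNA2D2 was at 8.30 and 9.0 and then 8.61 and 8.62, so the siLSD1 arrays lay between the siControl arrays. CACNB1, a cytosolic beta subunit that escorts the pore to the membrane, was at 4.80 and 4.77 and then 4.30 and 4.36. Its replicates were close in both groups, with 4.78 ± 0.021 and 4.33 ± 0.042 (SD, n = 2), and the difference of 1.37-fold had a 95% interval from -1.30 to 0.40, as limma draws the spread of a dim gene from other genes of its level. Without any 1 array its log2 fold change stayed between -0.48 and -0.42. CACNB2 (0.06) and CACNB3 (-0.01) had fold changes near 0. Among the gamma subunits, CACNG4, a regulator of glutamate receptor trafficking, had 0.24 by its brightest probe set whereas 2 further probe sets above the filter had -0.30 and -0.85. CACNG5 (-0.43) and CACNG6 (-0.01) overlapped between the groups, and CACNG5 was 0.04 without siControl replicate 1.

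The 25 potassium channel genes had 16 higher and 9 lower means and a median log2 fold change of 0.11, which was -0.01 without siControl replicate 2 and which no scaling turned. Those of the families grouped apart from the voltage-gated ones had 9 higher and 2 lower means, with a median of 0.30. The families grouped as voltage-gated, with the sodium, calcium and HCN genes among them, had 15 higher and 18 lower means and a median of -0.01. Among the tested potassium pores that voltage gates, silent subunits aside, the largest difference was that of KCNQ1, the slow potassium channel best known from the heart and inner ear. Its signal was 4.87 and 5.48 in siControl and 5.73 and 6.0 in siLSD1 cells. Both siLSD1 arrays were the higher, by 1.62-fold on the means of 5.17 ± 0.43 and 5.86 ± 0.19 (SD, n = 2), with limma giving a wide range (95% interval -0.09 to 1.47, log2; unadjusted p = 0.076, adjusted p = 0.9996 in limma). With all arrays the log2 fold change was 0.69, and without siControl replicate 1 it was 0.39. KCNQ3 and KCNQ5, subunits of the M-current that restrains repeated firing, had 0.22 and 0.12 with overlapping groups, and KCNQ3 was -0.19 without siControl replicate 2. The antisense RNA KCNQ1OT1, transcribed from the KCNQ1 locus, was at 4.83 and 4.90 and then 4.93 and 4.57, with a log2 fold change of -0.11. KCNQ1 and KCNQ1OT1 thus had means on opposite sides, and neither passed the test.

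KCNH2, the channel of the rapid delayed rectifier that is prominent in neuroblastoma cells, was at 9.39 and 8.92 in siControl and 9.01 and 9.12 in siLSD1 cells. The siLSD1 arrays fell inside the siControl range, and the log2 fold change was -0.09 (95% interval -0.54 to 0.37, log2). This bounds a difference more narrowly than for most members. Its other probe set above the filter level had -0.44, also with overlapping groups. KCNH8 had -0.10. Of the pores for fast repolarization, KCNC1, which lets neurons fire at high rates, was at 7.66 and 6.95 and then 7.08 and 7.40, and KCNC4 had -0.20; in both genes the groups overlapped.

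Among the electrically silent subunits, which form channels only together with other potassium subunits, KCNS1 had the largest log2 fold change of all 45 members by size. Its signal was 5.35 and 4.92 in siControl and 4.41 and 4.18 in siLSD1 cells. Both siLSD1 arrays were the lower, with means of 5.14 ± 0.3 and 4.29 ± 0.16 (SD, n = 2), a 1.79-fold difference (95% interval -1.71 to 0.02, log2; unadjusted p = 0.0546 in limma). Leaving out 1 array at a time gave between -1.06 and -0.63. KCNG3 was at 4.0 and 4.38 and then 4.37 and 5.26, with a log2 fold change of 0.62 that was 0.18 without siLSD1 replicate 2 and -0.86 with the mean of all its probe sets. The other probe set of KCNG3 had a mean signal of 2.96, below the filter level. KCNG1 was at 5.94 and 5.96 and then 6.16 and 5.97, just separate, a log2 fold change of 0.11. With the mean of all its probe sets this turned to -1.15, and its other probe set had a mean signal of 1.31, below the filter level. The auxiliary subunits KCNAB1 (0.16) and KCNAB2 (0.02), which bind the cytoplasmic side of the pore, and KCNIP2 (-0.04), a calcium sensor, had overlapping groups.

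Potassium channels opened by calcium or sodium held the member with the smallest p. KCNMA1, the pore of the large-conductance BK channel, was at 7.61 and 6.99 in siControl and 6.75 and 6.52 in siLSD1 cells. Both siLSD1 arrays were the lower, with means of 7.30 ± 0.43 and 6.64 ± 0.16 (SD, n = 2). This was a 1.58-fold difference (95% interval -1.31 to -0.01, log2; unadjusted p = 0.0467, adjusted p = 0.9996 in limma). In a limma fit of all probe sets above the filter level, the same probe set had a 95% interval of -1.36 to 0.03 (unadjusted p = 0.0596). Without siControl replicate 1, the higher of the control arrays, the log2 fold change was -0.36 in place of -0.66. KCNMB4, the BK auxiliary subunit of neurons, was at 6.64 and 6.70 and then 6.84 and 7.11, a log2 fold change of 0.30 in the opposite direction. Its other 2 probe sets above the filter had 0.10 and 0.02. KCNN1, a small-conductance channel behind the afterhyperpolarization, was at 5.38 and 4.77 and then 5.60 and 5.97, 1.63-fold higher (95% interval -0.10 to 1.51, log2). Its log2 fold change of 0.71, the largest upward, was 0.41 without siControl replicate 2.

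KCNT2, a sodium-activated potassium channel, gave unlike results from different probe sets. Its brightest probe set was at 8.26 and 7.72 in siControl and 7.96 and 8.13 in siLSD1 cells, a log2 fold change of 0.06. The second probe set above the filter level was at 5.32 and 5.19 in siControl and 6.69 and 6.33 in siLSD1 cells. There both siLSD1 arrays were the higher and the replicates of each group were close, with means of 5.25 ± 0.087 and 6.51 ± 0.25 (SD, n = 2) and a 2.38-fold difference. Its 95% interval ran from 0.55 to 1.95 on the log2 scale, and without any 1 array the log2 fold change was between 1.08 and 1.43. In a limma fit of all 22283 probe sets above the filter level, which was added after the data were seen, its unadjusted p was 0.00364 and its adjusted p 0.9949. It was the only one of 64 channel probe sets at an unadjusted p under 0.05, where 3.33% of all probe sets were. The sequences that these probe sets match were not analysed here.

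Inward rectifiers and two-pore channels, which set the resting potential, had 6 higher means and 1 lower among 7 tested genes. Of all genes 51.3% had the higher mean, and so few genes allow no reading of the split. Under the deposited scaling KCNK5 was also lower, at -0.14. With no filter the split was 15 higher and 12 lower among 27 genes. It was 5 and 2 both with the mean of all probe sets and with no _x_at or _s_at probe sets. Without either siControl array the split was 4 higher and 3 lower. KCNJ5, a subunit of the channel opened by G proteins in the heart and in neurons, was the 1 lower of the 7. It was at 5.57 and 4.67 in siControl and 4.12 and 4.46 in siLSD1 cells, 1.78-fold lower (95% interval -1.81 to 0.15, log2). The log2 fold change of -0.83 was -0.38 without siControl replicate 1. The other probe sets of KCNJ5, all with mean signals below the filter level, had 2.61, 1.05, 0.81, -0.03 and -2.77. KCNJ8, the pore of an ATP-sensitive channel, was at 7.52 and 8.18 and then 8.02 and 8.27, and its log2 fold change of 0.30 turned to -0.03 without siControl replicate 1. KCNJ9 had 0.14 with overlapping groups.

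KCNK1, a two-pore channel with weak leak current, was at 7.70 and 8.58 in siControl and 8.61 and 8.83 in siLSD1 cells. It was 1.49-fold higher (95% interval -0.09 to 1.24, log2). Its second probe set was at 6.12 and 6.63 and then 6.74 and 6.74, again with both siLSD1 arrays above both siControl arrays. In both probe sets siControl replicate 1 was the lowest array by far, and without it the log2 fold change of the first was 0.14 in place of 0.58. With the mean of all its probe sets, including dim ones, KCNK1 turned to -0.56. KCNK3, an acid-sensitive background channel, was at 5.29 and 5.88 and then 5.95 and 6.17, or 1.39-fold higher. Its log2 fold change of 0.48 was 0.18 with siControl replicate 1 left out, and its other 2 probe sets above the filter had -0.03 and 0.30. KCNK5 had 0.05 with overlapping groups.

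The HCN channels, cation channels opened by hyperpolarization that pace rhythmic firing, had 0 higher and 3 lower means; under median centring 2 of the 3 were higher. HCN2 was at 5.25 and 5.22 in siControl and 4.98 and 5.16 in siLSD1 cells, a log2 fold change of -0.17, and both siLSD1 arrays were the lower. With the mean of all its probe sets it turned to 0.33, and its other probe set had a mean signal of 3.57, below the filter level. HCN3 had -0.11 and HCN4 -0.0047, both with overlapping groups. The other 3 tested members, outside the naming rule, were SCN10A (0.05), KCNRG (-0.12) and KCNJ15 (0.33), all with overlapping groups.

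**Figure D3:**
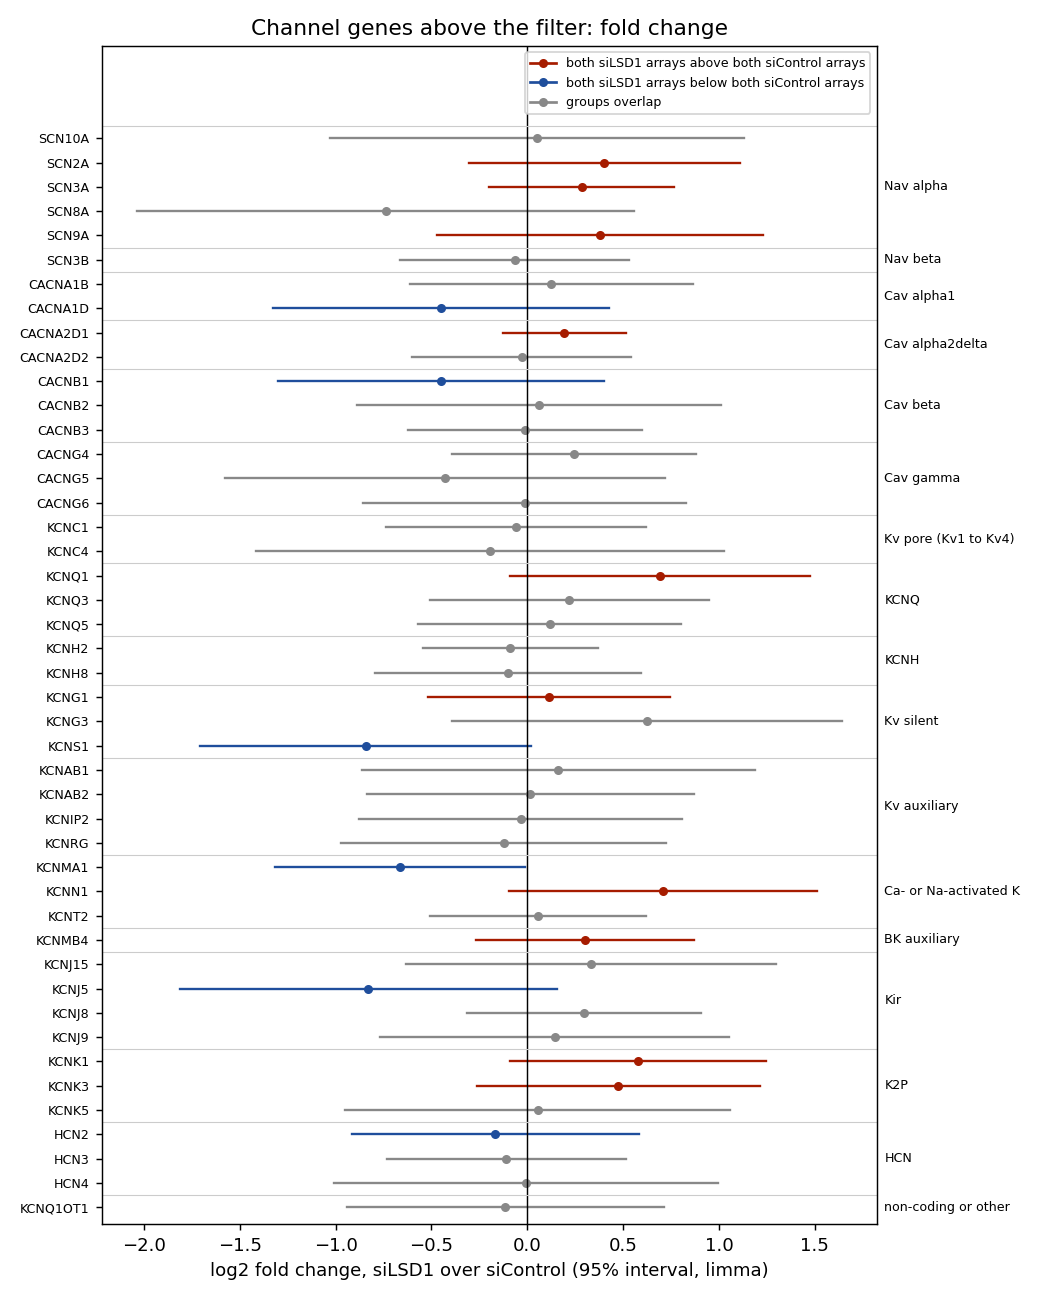
Log2 fold change of siLSD1 over siControl (x axis) with its 95% interval from limma for the 45 channel genes, grouped by role; colours give whether the 2 arrays of each group overlap. In this fit with 1 probe set per gene, the interval leaves out 0 for 1 gene, KCNMA1, from -1.31 to -0.01, and includes it for the others.

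Among the 16 members whose groups did not overlap, the array siControl replicate 1 was usually the control farther from the siLSD1 arrays. It was the lower control for 7 of the 10 members with both siLSD1 arrays higher, and the higher control for 5 of the 6 with both lower. The matching counts over all genes were not made. Over all genes tested, siControl replicate 1 also lay farthest from the gene means, by a median of 0.19 against 0.11 to 0.14 on the other arrays. Its part in these values was not tested beyond leaving it out. Without it the median log2 fold change of the 45 members was 0.11, and without siControl replicate 2 it was -0.09. Over the 45 members, siControl replicate 1 had the highest value for 18, siLSD1 replicate 2 for 13, siLSD1 replicate 1 for 8 and siControl replicate 2 for 6. The lowest value was on siControl replicate 1 for 13, on siControl replicate 2 for 13, on siLSD1 replicate 1 for 12 and on siLSD1 replicate 2 for 7.

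**Figure D4:**
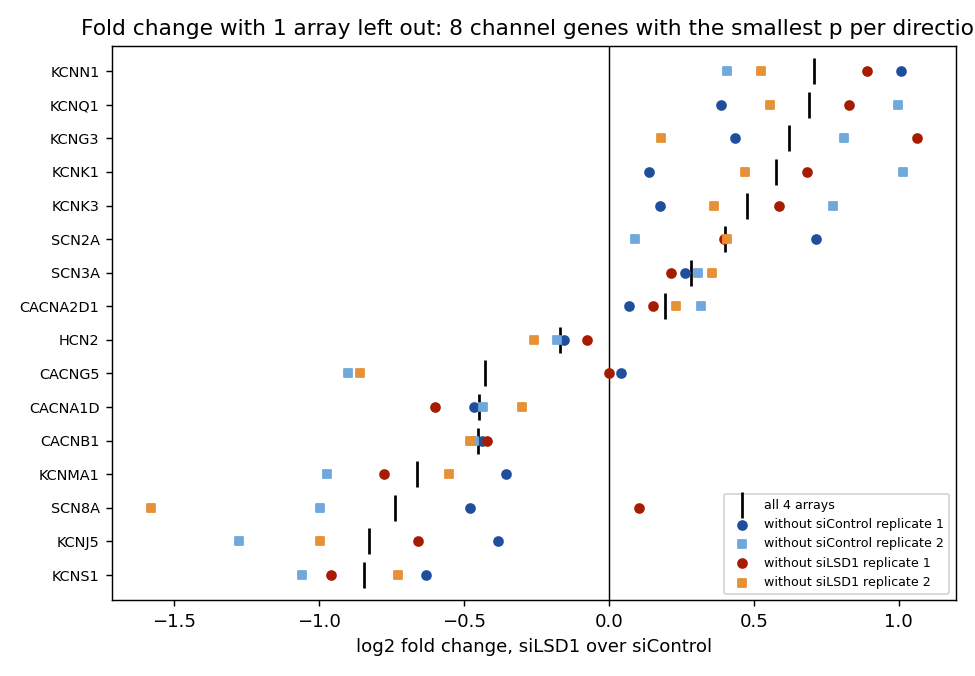
Log2 fold change (x axis) of the 8 channel genes with the smallest p in each direction, with all 4 arrays (black bars) and with each array left out in turn (coloured points). SCN8A crosses 0 without siLSD1 replicate 1, at 0.10, and CACNG5 lies at 0.04 without siControl replicate 1, whereas CACNB1 stays between -0.48 and -0.42.

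Different probe sets of a gene often gave different directions. For 16 of the 45 members, 19 other probe sets lay above the filter level, and 11 of these 19 had a fold change of the same sign as the brightest one. Probe sets of SCN9A had log2 fold changes of 0.38 and 0.72, those of KCNJ8 0.30 and 0.47, and those of KCNK1 0.58 and 0.37. The signs differed in CACNA1D, CACNA2D1, CACNB3, CACNG4, KCNAB1 and SCN2A and in 1 of the pairs of KCNK3, and KCNT2 had the same sign with sizes of 0.06 and 1.25. Of the members with separate groups, SCN3A, KCNQ1, KCNMA1 and KCNMB4 were measured by probe sets whose suffix (_s_at) marks probes common to several transcripts, and KCNJ5 and HCN2 by ones (_x_at) whose probes can match other sequences.

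**Figure D5:**
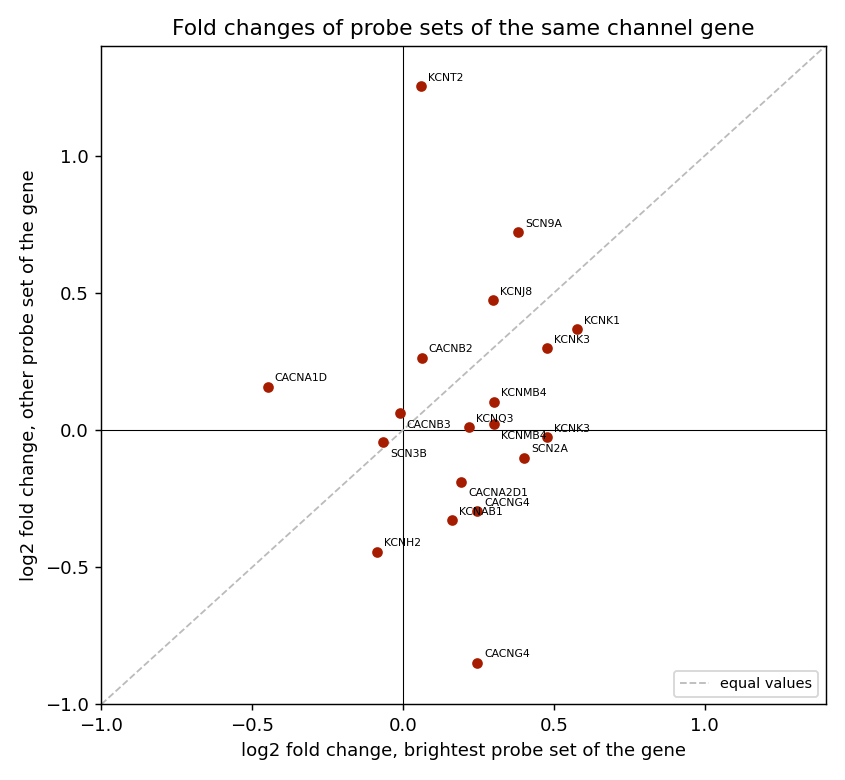
Log2 fold change of the brightest probe set of a gene (x axis) against that of each other probe set of the gene above the filter level (y axis), 19 pairs from 16 channel genes. The dashed line marks equal values; KCNT2 lies far above it at 0.06 and 1.25, and CACNG4 far below it at 0.24 and -0.85.

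The 83 channel genes below the filter level were not tested, and 61 of them were below it on all 4 arrays. Their log2 fold changes ran from -3.04 (KCNK2) to 2.35 (KCNJ16), and these extremes, picked after their values were seen, were not ranked or tested. Just inside the filter were KCNC4, with a mean of 4.30, and CACNG5 with 4.33; just outside were SCN4B with 4.09 and KCNMB1 with 4.07.

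Proteins that anchor, traffic or modulate these channels were taken as a list of 63 genes, of which 36 were tested. In limma 0 were higher and 0 lower at an adjusted p under 0.05, as for all genes. At an unadjusted p under 0.05, 1 was higher (2.29% of all genes) and 0 lower (1.15% of all genes). The means of 26 were higher and of 10 lower, where 51.3% of all genes had the higher mean. The median log2 fold change of the list was 0.12, beside 0.01 for all genes tested. The groups did not overlap for 19.4%, against 31.7% of all genes. NRCAM, an adhesion protein that clusters sodium channels at nodes and initial segments, was at 9.39 and 9.60 in siControl and 10.16 and 10.50 in siLSD1 cells. Both siLSD1 arrays were the higher, with a log2 fold change of 0.84 and a 95% interval of 0.47 to 1.2 (unadjusted p = 0.000705, adjusted p = 0.9996 in limma). PACSIN2, an adaptor of membrane traffic, had 0.51 and STAC, a cytosolic partner of L-type calcium channels, 0.32. Among REST and its corepressors, 14 of 15 listed genes were tested, with 8 higher and 6 lower means and a median log2 fold change of 0.07. These counts take in KDM1A, the target of the siRNA, which is among the lower means at -1.32. REST itself was at 7.33 and 6.61 in siControl and 6.91 and 7.27 in siLSD1 cells, so its groups overlapped. After KDM1A the smallest p in that list belonged to SIN3B (0.51) and PHF21A (0.32), neither past the threshold.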

How the data were processed

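Expression was measured on Affymetrix arrays with biotin-labelled material from 2 siControl and 2 siLSD1 cultures of SH-SY5Y cells, per the labels' protocols. The deposited values are log2 signals, 1 per probe set and array; the scale was found from the values, since the authors' base-2 antilogs have a mean of 100.004 on each array without the lowest and highest 2%. The method of probe summary was not given in the sources used here. Deposited array medians spanned 0.27, and the arrays were quantile normalized, which would remove a difference in overall signal.

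Of 54675 probe sets, 62 were controls, 41091 named 1 gene and 1801 several in the platform annotation; only the first were used. All 128 members matched RefSeq (GRCh38.p14) by Entrez identifier, with the same symbol. Genes whose brightest probe set had a mean below the 40th percentile (7910 of 19775) were left out. Both groups entered limma 3.58.1 under R 4.3.3 (lmFit, eBayes with a mean-variance trend, two-sided, Benjamini-Hochberg over 11865 genes, threshold 0.05, 8.22 degrees of freedom), after a check on simulated data. With 2 arrays a group, which limits the precision, 0.333 is the smallest p of a two-sided exact permutation test. Motifs were counted with Python 3.11.15.

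The members and lists were chosen with earlier results of these data known. Named by rule were, in each role, up to 3 tested members with the highest mean, the 8 with the smallest p in each direction, and for other lists 3 genes each with the smallest p or, for cell markers, the highest mean. Alternatives were the deposited scaling, median centring, other filters and probe set rules, no variance trend, a replicate block and leaving out each array. The replicate numbers do not pair the samples by any label; the correlation of same-numbered deviations was 0.05.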

Additional observations from a re-analysis of the deposited data

How the results depend on the processing

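In limma 0 channel genes passed an adjusted p under 0.05 under every alternative run: deposited scaling, median centring, no filter, a filter at the 60th percentile, the mean of all probe sets, no _x_at or _s_at probe sets, no mean-variance trend, the replicate block, each array left out, and every probe set by itself, the last added after the data were seen. With the replicate number as a block, the count of all genes called was 13 in place of 0, the smallest adjusted p of a channel gene was 0.827, and the count of channel genes stayed 0. Leaving out an array leaves 1 in its group, which is assumed to vary like the other group, so the p-values of those fits rest on the spread of 1 pair of arrays, moderated over genes, and say nothing about stability. Without siControl replicate 2, 83 of all genes were called and the smallest adjusted p of a channel gene was 0.0913. The median log2 fold change of the members (0.05) was 0.19 under median centring, where that of all genes tested was 0.18 in place of 0.01 and 75.6% of members and 78.2% of all genes had higher means, in place of 53.3% and 51.3%. It was 0.19 with a filter at the 60th percentile, which left 13 members, and -0.012 with no filter (61 higher and 67 lower means), -0.016 with the mean of all probe sets (21 and 22) and -0.012 with no _x_at or _s_at probe sets (25 and 28). With 1 array left out it ran from -0.089 to 0.11. For the families grouped by symbol as voltage-gated, which left out KCNMA1, it was -0.01.

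Of 42 members named by rule, 30 turned sign under at least 1 of 12 settings and 0 passed the threshold; the cause was not tested. No filter, the filter at the 60th percentile, no mean-variance trend and the replicate block leave the log2 fold change of a retained member as it was. No sign could turn in those settings. A member without a value in a setting did not count as turned there. Values were on hand for 32 of the 42 with the mean of all probe sets. With no _x_at or _s_at probe sets there were 33, and with the filter at the 60th percentile 13. Under the deposited scaling the log2 fold change was 0.020 for CACNA2D2, 0.038 for CACNB3, 0.0046 for CACNG6, -0.075 for KCNAB2 and -0.14 for KCNK5. Under median centring it was 0.14 for SCN3B, 0.19 for CACNA2D2, 0.21 for CACNB3, 0.18 for CACNG6, 0.15 for KCNC1, 0.095 for KCNH2, 0.073 for KCNH8, 0.10 for KCNIP2, 0.088 for HCN3 and 0.078 for HCN4. With the mean of all probe sets it was -0.055 for SCN3A, 0.024 for CACNB3, -0.30 for CACNG4, -0.022 for KCNQ3, -1.15 for KCNG1, -0.86 for KCNG3, -0.56 for KCNK1 and 0.33 for HCN2. For SCN3A, KCNQ3, KCNG1, KCNG3, KCNK1 and HCN2 that mean takes in probe sets below the filter level.

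With 1 array left out, the lowest and highest log2 fold changes of members that turned were -1.58 and 0.10 for SCN8A, -0.15 and 0.019 for SCN3B, -0.15 and 0.40 for CACNA1B, -0.38 and 0.32 for CACNA2D2, -0.42 and 0.54 for CACNB2, -0.27 and 0.24 for CACNB3, -0.17 and 0.66 for CACNG4, -0.90 and 0.042 for CACNG5, and -0.50 and 0.47 for CACNG6. Among potassium channels they were -0.42 and 0.29 for KCNC1, -0.86 and 0.47 for KCNC4, -0.19 and 0.63 for KCNQ3, -0.11 and 0.35 for KCNQ5, -0.32 and 0.15 for KCNH2, -0.26 and 0.055 for KCNH8, -0.45 and 0.77 for KCNAB1, -0.17 and 0.20 for KCNAB2, -0.36 and 0.29 for KCNIP2, -0.21 and 0.33 for KCNT2, -0.034 and 0.63 for KCNJ8, -0.18 and 0.47 for KCNJ9, and -0.35 and 0.46 for KCNK5. For HCN3 they were -0.25 and 0.033, for HCN4 -0.36 and 0.35, and for KCNQ1OT1 -0.29 and 0.062.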
